A study of Mus musculus with 9 samples.

Results

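Baseline gene expression of control 4T1 cells, a mouse mammary carcinoma line, was described from the 3 control libraries (labelled NC, negative control) of a series of 9 RNA-seq libraries. The 3 were picked out by their label, with earlier results of these data known, and no treated library entered any value given here. All NC libraries carry the time label day 2, and the labels name no animal, allele or engineered change. Each group of the series was 4T1 cells grown in DMEM with fetal bovine serum and antibiotics. The labels do not say whether NC cells received a vehicle, a non-targeting RNA or nothing, nor whether the 3 libraries came from separate cultures, so the spread between them may be technical. Levels are in FPKM (fragments per kilobase of transcript, scaled to library size), summed over the named transcripts of each gene, for 52306 named genes. FPKM is a value per length, so levels of different genes are compared below on that scale, and no read totals were given, so the depth of the libraries is unknown. With a single group and no contrast, no test was made: values are given as FPKM in NC replicates 1, 2 and 3, or as mean ± SD (n = 3). A gene is called expressed at a mean of 1 FPKM or more.

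The 4T1 line is used as a model of breast cancer that spreads from the mammary fat pad of immunocompetent mice to lung, liver and bone. Mammary epithelium has luminal cells, which carry the simple keratins Krt8 and Krt18 and, in part, hormone receptors, and basal cells, which carry Krt5, Krt14 and smooth muscle proteins. Carcinoma cells that have moved toward a mesenchymal state (epithelial to mesenchymal transition, EMT) lose E-cadherin and gain vimentin, matrix proteins and matrix-cutting enzymes, and may keep part of their keratins.

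Sequences upstream of 6 genes are shown because these genes mark the ends of what follows: Krt8 and Krt18 (simple keratins), Vim (vimentin) and Mmp3 (stromelysin 1, a matrix metalloproteinase) were among the expressed genes, while Csn2 (beta-casein, a milk protein) and Epcam (an epithelial adhesion protein) were at or near 0. They are RefSeq promoter windows of the build GRCm38.p6, which is not the build of the deposited table (GRCm39), printed 5′ to 3′ on the gene's strand up to 20 bases past the annotated start. The windows are chr15:102004323-102004592 (minus strand) for Krt8, chr15:102027966-102028235 (plus) for Krt18, chr2:13574061-13574330 (plus) for Vim, chr9:7445572-7445841 (plus) for Mmp3, chr5:87699406-87699675 (minus) for Csn2 and chr17:87635729-87635998 (plus) for Epcam. Capitals mark matches, on either strand, to 6 short words: TATAAA (the TATA box), CCAAT (the NF-Y box), GGGCGG (the GC box), TGACTCA (the AP-1 site), CACGTG (the E-box of Myc) and CACCTG (the E-box of Snai and Zeb factors). No word holds another.
Krt8: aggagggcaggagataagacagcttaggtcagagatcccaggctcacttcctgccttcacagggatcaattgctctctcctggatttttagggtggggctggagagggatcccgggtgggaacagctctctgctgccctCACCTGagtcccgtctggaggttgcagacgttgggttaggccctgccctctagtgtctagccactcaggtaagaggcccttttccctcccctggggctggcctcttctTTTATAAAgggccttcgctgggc
Krt18: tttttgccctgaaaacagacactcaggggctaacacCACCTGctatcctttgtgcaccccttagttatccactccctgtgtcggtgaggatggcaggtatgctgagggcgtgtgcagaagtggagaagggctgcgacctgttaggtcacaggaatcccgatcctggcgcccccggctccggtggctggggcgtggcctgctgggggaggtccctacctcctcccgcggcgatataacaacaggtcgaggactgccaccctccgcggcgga
Vim: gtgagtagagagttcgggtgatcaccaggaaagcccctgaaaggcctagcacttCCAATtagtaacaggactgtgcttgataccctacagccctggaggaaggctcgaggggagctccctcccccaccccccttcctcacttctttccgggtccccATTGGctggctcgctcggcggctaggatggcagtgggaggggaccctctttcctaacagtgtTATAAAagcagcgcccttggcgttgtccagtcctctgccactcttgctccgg
Mmp3: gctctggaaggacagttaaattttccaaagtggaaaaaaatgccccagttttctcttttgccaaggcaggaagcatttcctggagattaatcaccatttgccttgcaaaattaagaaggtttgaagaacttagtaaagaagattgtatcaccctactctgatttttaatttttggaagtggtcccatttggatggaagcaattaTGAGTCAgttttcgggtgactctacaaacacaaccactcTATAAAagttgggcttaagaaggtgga
Csn2: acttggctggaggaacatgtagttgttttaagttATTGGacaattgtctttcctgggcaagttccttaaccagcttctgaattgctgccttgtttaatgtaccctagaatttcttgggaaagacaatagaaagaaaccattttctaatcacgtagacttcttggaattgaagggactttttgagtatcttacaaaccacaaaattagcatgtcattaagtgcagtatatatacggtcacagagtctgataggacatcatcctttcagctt
Epcam: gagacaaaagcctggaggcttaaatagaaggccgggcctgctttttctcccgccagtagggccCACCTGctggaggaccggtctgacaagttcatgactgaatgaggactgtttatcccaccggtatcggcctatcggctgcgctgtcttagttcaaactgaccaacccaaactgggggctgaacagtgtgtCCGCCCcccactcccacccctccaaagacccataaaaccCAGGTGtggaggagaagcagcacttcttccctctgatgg
The TATAAA match of Vim began 32 bases before the annotated start, that of Mmp3 7 bases before, and the 2 overlapping matches of Krt8 lay on both strands at the start itself. Mmp3 held the only TGACTCA match of the 6 printed windows, 46 bases before the start on the other strand. Of all 17688 promoter windows compared, 4.86% hold this word. Those windows run to 50 bases past the start and so are longer than the printed ones. A CACCTG match was found in Krt8, Krt18 and, on both strands, in Epcam, against 19.8% of all the longer windows. A match is a run of letters only and says nothing of binding.

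The 3 libraries were alike. Summed over all transcripts they held 321551 to 332950 FPKM, 10% to 11.2% of it in assembled transcripts without a gene name, and each library had 10017 to 10172 named genes at 1 FPKM or more. Pearson correlations of log2(FPKM + 1) across the 10139 expressed genes were 0.9737 to 0.9806 for the 3 pairs of libraries, across genes, which are not independent replicates. Of the 4410 genes at 10 FPKM or more, the coefficient of variation (CV, SD over mean) between libraries had a median of 6.88% and quartiles of 4.33% and 11%. Larger differences between the libraries are given beside the genes concerned.

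Of the 52306 named genes, 10139 (19.4%) were expressed, 9907 lay above 0 and under 1 FPKM, and 32260 (61.7%) were listed at 0 in every library. Among the 21292 genes that RefSeq gives as protein-coding, matched by symbol, 9333 (43.8%) were expressed and 8204 (38.5%) were listed at 0. Levels spanned a wide range: 5729 genes were at 1 to under 10 FPKM, 3960 at 10 to under 100, 422 at 100 to under 1000, and 28 at 1000 or more. The 10 highest genes held 7.21% ± 0.0966 of the FPKM of named genes, the 100 highest 31.9% ± 0.789 and the 1000 highest 66.4% ± 0.77. Between 332 and 369 genes made up 50% of the FPKM of a library. A listed 0 is an estimate without a read total, so no upper limit belongs to it. Genes of 8 groups for complexes that every cell needs, such as the proteasome, the RNA polymerases, Mediator and respiratory complex I, were looked up by name after the levels had been seen. Of their 244 genes, 242 were expressed, and the exceptions were Psma8 (0) and Psmb11 (0.00597 FPKM), subunits used in testis and thymus. The medians of these groups were 9.2 to 143 FPKM, so they cannot show whether a listed 0 of a lower gene is an absence.

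**Figure D1:**
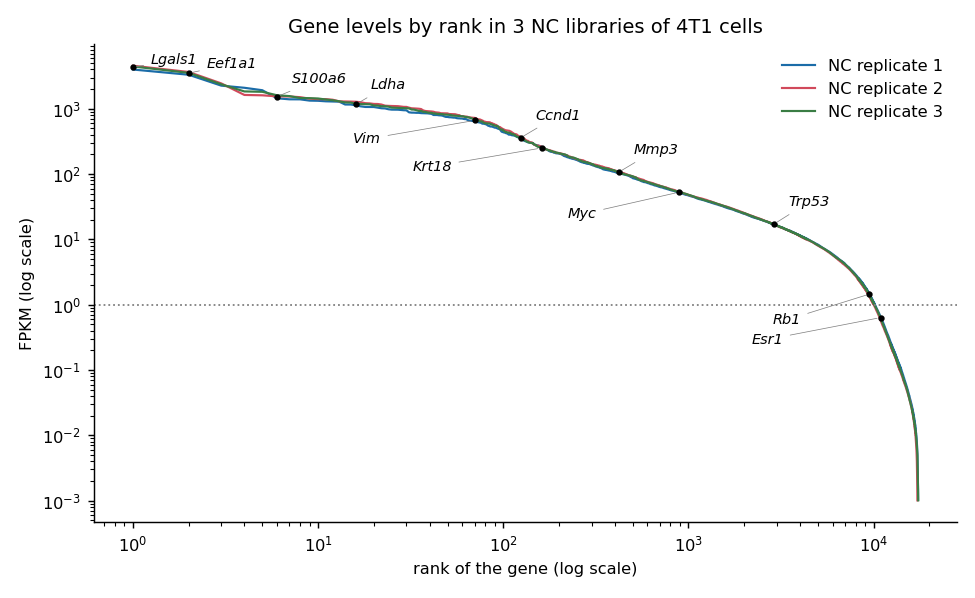
Level of each named gene (FPKM, log scale) against its rank (log scale) in NC replicates 1, 2 and 3, with 12 genes marked at their mean; the dotted line is 1 FPKM. The 3 curves lie nearly on each other, from Lgals1 at a mean of 4333 FPKM down through Trp53 at 17.1 and Rb1 at 1.45 to Esr1 at 0.635.

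The most abundant named gene in each of the 3 libraries was Lgals1, which encodes galectin-1, a secreted sugar-binding protein that restrains T cells and is rich in mesenchymal cells. It was listed at 3991, 4562 and 4446 FPKM (mean 4333 ± 302), which was 1.4% to 1.53% of all named FPKM. Eef1a1, the factor that brings aminoacyl-tRNA to the ribosome, followed at 3319, 3659 and 3547 FPKM. Its 3 values did not overlap those of Lgals1 or those of Rplp1 (2261, 2447 and 2369 FPKM), a protein of the ribosomal stalk. Below these, neighbours in the order of levels mostly overlapped: mt-Co1 (1783 ± 161 FPKM) and mt-Cytb (1772 ± 366), subunits of the respiratory chain encoded in mitochondria, S100a6 (1535 ± 82.3), a calcium-binding protein, Ftl1 (1529 ± 120) and Fth1 (1394 ± 81.8, or 615 from its most abundant transcript), the ferritin chains that store iron, Rpl23a (1466 ± 74.7), and Rpl7a (1392 ± 111). Of the 30 highest genes, 13 more encode ribosomal proteins or carry the name of a ribosomal pseudogene, among them Rpl41, Rps2-ps10, Rpl8, Rps27, Rpl19, Rpl13, Rpl32, Rpl10, Rps15, Rpl7 and Rps4x, between 992 and 1348 FPKM. The others were Tpt1 (1389 ± 57.3 FPKM), a translationally controlled tumour protein, Ldha (1167 ± 121), lactate dehydrogenase A, Hsp90ab1 (1149 ± 74.5), a chaperone, Ptma (1130 ± 242) and Npm1 (1017 ± 145), nuclear proteins of dividing cells, Eif5a (1107 ± 49.4), a translation factor, and the predicted gene Gm8730 (1063 ± 110).

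Genes of basic machinery made up a large part of the total. Counts of expressed genes in this and the later machinery lists stand beside 43.8% of protein-coding genes and 19.4% of all named genes. All 79 cytosolic ribosomal protein genes were expressed, from Rpl29 at 77.2 FPKM to Rplp1, and together they held 18.6% ± 0.476 of named FPKM. Reads of these genes can be shared with near-identical copies elsewhere in the genome, so single levels are uncertain: Rps2 was listed at 295 ± 14.8 FPKM while Rps2-ps10 stood at 1254 ± 80.2, and Rps18 at 159 ± 5.32 while Rps18-ps6 stood at 608 ± 74.7. In all, 97 of 322 genes named as ribosomal pseudogenes were expressed, with a summed level of 3178 ± 229 FPKM. Of 40 translation factors, 39 were expressed, and the exception was Eef1a2, the muscle and nerve form of elongation factor 1, at 0. Pabpc1, which binds poly(A) tails, stood at 864 ± 15.4 FPKM, Eef2 at 843 ± 65.2 and the helicase Eif4a1 at 775 ± 30.

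Glycolytic genes were high, with 1 form of several enzymes and carriers prevailing. Of 24 genes, 22 were expressed (91.7%, against 43.8% of protein-coding genes). Ldha led (1040, 1281 and 1179 FPKM), with Pkm (802 ± 144), Gapdh (767 ± 68.8), Eno1 (760 ± 65.8) and Aldoa (626 ± 57). This order is one of summed transcripts. The leading named transcript held 48.8% of the level of Ldha and 66.1% of Pkm, against 89.1% of Gapdh and 98.4% of Eno1. The forms of other tissues were low: Ldhb stood at 1.13 ± 0.192 FPKM, and the ranges of Ldha and Ldhb did not overlap. Slc2a1, the common glucose transporter, was at 28 ± 1.21 FPKM while Slc2a3, a neuronal form, was listed at 0. Lactate carrier Slc16a1 stood at 60.2 FPKM and Slc16a3 at 0.0242. Among 35 chaperones, 33 were expressed, with Ppia (947 ± 93 FPKM) and Hspa8 (655 ± 135) behind Hsp90ab1, whereas the heat-inducible Hspa1a (0.111 FPKM) and Hspb1 (0.442) were not. Of 38 ferritin, antioxidant and glutathione genes, 34 were expressed: after the ferritins came Sod1 (268 ± 14.7 FPKM), Txn1 (246 ± 23), Prdx1 (224 ± 16.6), Gpx1 (202 ± 13.6) and Gpx4 (145 ± 9.37), the peroxidase that acts on lipid peroxides. Slc40a1, the iron exporter ferroportin, was listed at 0 in all 3 libraries. The cystine carrier Slc7a11 stood at 0.215 FPKM, or 0.656 with unnamed transcripts of its locus added.

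Genes of the cytoskeleton were expressed in 49 of 55 cases. S100a6 led, followed by Actb (750, 1107 and 1013 FPKM), Pfn1 (930 ± 75.1), S100a4 (761 ± 50.4), a calcium-binding protein linked with motility, S100a11 (732 ± 32.3), Vim and Tubb5 (661 ± 56.2). The smooth muscle forms Acta2 (0.0132 FPKM) and Myl9 (0) and the neuronal tubulin Tubb3 (0.0457) were near 0 or at it. All 42 cell cycle genes found in the table were expressed, with a median of 47.4 FPKM. Pcna, the sliding clamp of DNA replication, stood at 243, 242 and 255 FPKM, Ube2c, an enzyme of mitotic exit, at 204, 211 and 205, and Rrm2, a ribonucleotide reductase subunit, at 137, 139 and 136. The replicates of these 3 genes lay within a few percent of each other. Mki67, the gene of the Ki-67 antigen, had a wider spread at 30.1, 13.6 and 20.1 FPKM.

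Krt8, Krt18, Vim and Mmp3, markers set for this description and not named by the sample labels, were all expressed in the 3 libraries. Krt18 (chr15:101936615-101940462, GRCm39) was listed at 225, 268 and 259 FPKM (251 ± 22.7), and its partner Krt8 (chr15:101905133-101912917, GRCm39) at 181, 204 and 203 (196 ± 12.9). The 3 values of each did not overlap. Vim (chr2:13578738-13587637, GRCm39), the intermediate filament of mesenchymal cells, was listed at 386, 798 and 803 FPKM (662 ± 239), the lowest value in replicate 1. An unnamed isoform at the same locus, of 10 exons and 2094 bases, stood at 751, 459 and 376 FPKM, in the opposite order to the 9-exon reference isoform (381, 792 and 799). With both, Vim came to 1137, 1258 and 1180 FPKM (1192 ± 61.4), and the low value of replicate 1 was no longer set apart. Mmp3 was listed at 99.4, 108 and 113 FPKM (107 ± 6.84), all from 1 transcript of 10 exons.

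Simple epithelial genes were present without several defining adhesion genes. Of 38 keratin and junction genes, 25 were expressed (65.8%, against 43.8% of protein-coding genes). Beta-catenin Ctnnb1 stood at 157 ± 4.05 FPKM, the protease inhibitor Spint2 at 107 ± 4.93, alpha-catenin Ctnna1 at 74.2 ± 0.694, Krt7 at 24.4 ± 4.03 and the tight junction gene Cldn3 at 18.2 ± 1.21. Cdh1, which encodes E-cadherin, was low at 2.66, 2.75 and 2.99 FPKM (2.8 ± 0.171), far below every value of its binding partner Ctnnb1. Krt19 was at 1.45 ± 0.212 FPKM. Epcam (0.0335, 0.04 and 0.0986 FPKM), the desmosome genes Dsp (0.0289), Dsg2 (0.0488) and Dsc2 (0.0464), and the claudins Cldn7 (0.084) and Cldn1 (0.0148) were near 0. Tjp1, a tight junction scaffold, was listed at 3.59 ± 0.657 FPKM, or 18.3 ± 3.2 with unnamed transcripts of its locus. Across the whole keratin family, 6 of 55 genes were expressed (Krt18, Krt8, Krt7, Krt80 at 7.52 FPKM, Krt19 and the pseudogene Krt8-ps at 1.11, or 2.05 with unnamed transcripts) and 39 were listed at 0.

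Of 29 epithelial transcription factors and splicing regulators 13 were expressed (44.8%, near the 43.8% of protein-coding genes), led by Cebpb (53.4 ± 3.72 FPKM), Id1 (28.7 ± 0.831), Klf5 (12.2 ± 0.134), Gata3 (10.5 ± 1.15), the luminal lineage factor, and Tfap2a (9.72 ± 0.301). Grhl2 (0.0202 FPKM), which drives Cdh1 and other junction genes, and the splicing regulator Esrp1 (0.0163) were near 0, while its paralogue Esrp2 was at 3.52, 2.91 and 3.09 FPKM. Ovol1, Ovol2, Grhl3, Ehf and Elf5, the last a factor of milk-secreting cells, were listed at 0 in every library.

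Mesenchymal genes were expressed in 19 of 36 cases (52.8%, against 43.8% of protein-coding genes). They held 2.21% ± 0.148 of named FPKM, most of it Lgals1. Behind Lgals1, S100a4 and Vim came Spp1 (osteopontin, 278 ± 38.3 FPKM, or 127 from its most abundant transcript), Sparc (121 ± 8.47), Mmp3, Cd44 (55.5 ± 1.7) and Fn1 (fibronectin, 45.5 ± 2.45). Among EMT transcription factors, Twist1 was at 19.4, 20.4 and 19.4 FPKM, Snai1 at 5.49, 6.56 and 5.58, and Zeb2 at 0.624, 4.96 and 5.91, with replicate 1 far below the others. Their paralogues were at or near 0: Zeb1 and Snai2 were listed at 0 in all libraries and Twist2 stood at 0.00841 FPKM. N-cadherin Cdh2, Thy1, Tnc and Col3a1 were also at 0, and the fibrillar collagens Col1a1 (0.0478 FPKM) and Col1a2 (0.0642) near it.

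**Figure D2:**
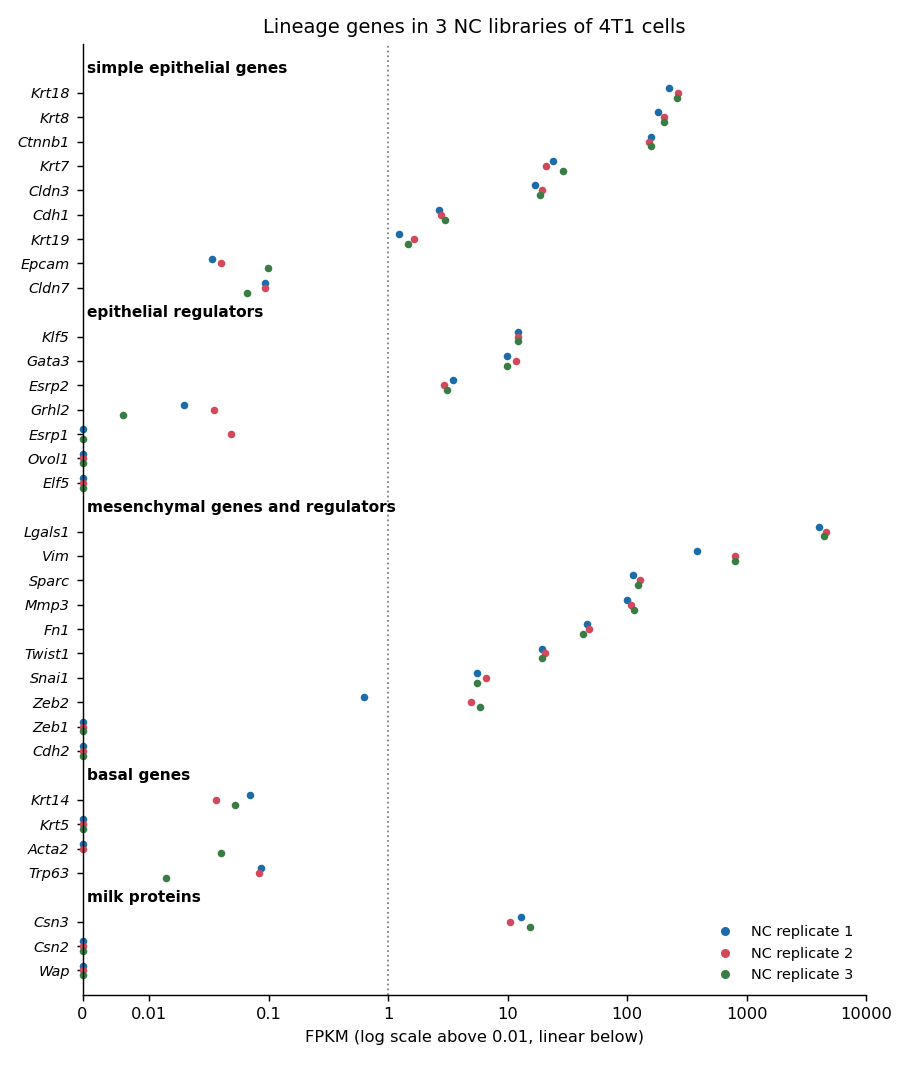
FPKM of lineage genes in each NC library (colours), on an axis that is logarithmic above 0.01 and linear below; the dotted line is 1 FPKM. Krt18, Krt8, Vim, Lgals1 and Mmp3 lie near 100 FPKM or above, Cdh1 at 2.8, and Epcam, Grhl2, Zeb1, Krt5 and Csn2 near 0 or at it.

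The lists of luminal and of basal mammary genes were expressed to nearly the same extent, both below the 43.8% of protein-coding genes. Vim, Sparc and Cd44 of the basal list are also in the mesenchymal list. The near-equal shares therefore do not weigh luminal against basal identity. Of 26 luminal genes 8 were expressed (30.8%), with a list median of 0.00985 FPKM: Krt18, Krt8, Mfge8, Areg, Gata3, Lcn2, Cd14 and Krt19. Of 27 basal and myoepithelial genes 8 were expressed (29.6%), with a median of 0.053 FPKM, among them Vim, Itgb1 (123 ± 7.59 FPKM), Sparc, Cd44, Procr (28.5 ± 3.48) and Itga6 (26.8 ± 3.91). The basal keratins Krt5, Krt6a, Krt6b and Krt16 were listed at 0, Krt14 stood at 0.053 FPKM, Krt17 at 0.0626, and Trp63, the basal master regulator, at 0.0607. Of 20 milk and secretory genes 6 were expressed (30%). Csn2, Csn1s1, Csn1s2a, Wap and Lalba, the main milk proteins, were at 0 in every library, but kappa-casein Csn3 was listed at 12.8, 10.5 and 15.3 FPKM. Mfge8, a milk fat globule protein that also tags dying cells for uptake, was at 105 ± 8.74 FPKM, and the lipid droplet protein Plin2 at 30.2 ± 5.21. Stat5a (4.24 ± 0.203 FPKM) and Stat5b (9.08 ± 0.499), the transcription factors through which prolactin acts, were expressed although the prolactin receptor Prlr was listed at 0.

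Most markers of other cell types that a culture or tumour sample could hold were at 0 or near it. Their counts stand beside 43.8% of protein-coding genes expressed and 38.5% listed at 0 in every library. Of 22 T, B and NK cell markers none was expressed, 17 were at 0 in every library, and the summed level of the list was 0.208 ± 0.0116 FPKM. Of 24 myeloid and mast cell markers 3 were expressed, Cd14 (5.65 ± 0.621 FPKM), Cd68 (3.69 ± 0.239) and S100a8 (1.68 ± 0.466), while the defining genes Adgre1, Csf1r, Itgam and Lyz2 were at 0 and Ptprc stood at 0.0126 FPKM. Cd14 is also listed among luminal genes. Fibroblast, pericyte and fat cell markers gave 2 of 20, Pdgfrb (1.44 ± 0.0786 FPKM) and Pdgfra (1.93, 0.834 and 0.683), with Dcn, Lum, Fap and Adipoq at 0. Endothelial and blood markers gave 1 of 24, Flt1 (2.8, 2.4 and 5.53 FPKM; 6.64 ± 0.573 with unnamed transcripts), with Pecam1, Kdr and Vwf at 0. Nerve and glia markers gave 1 of 22, Mbp (5.44 ± 0.163 FPKM), and markers of liver, pancreas, kidney and gut 1 of 24, Cela1 (2.47 ± 0.201). None of 20 muscle and heart markers and none of 26 germ cell and early embryo genes was expressed. In the last list Sycp1 (0.35 ± 0.134 FPKM) was highest, and Pou5f1, Nanog and Dazl were at 0.

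**Figure D3:**
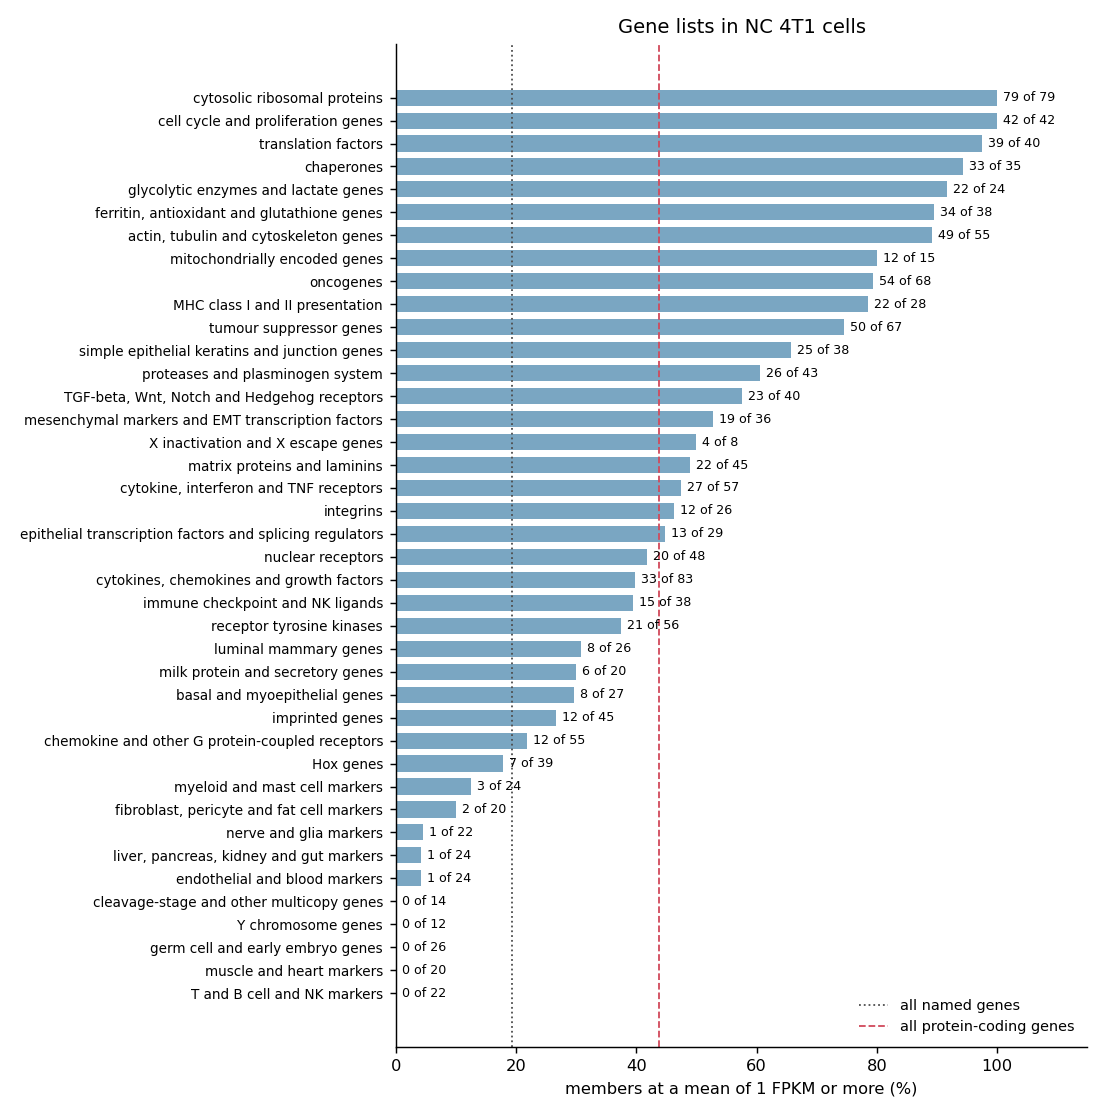
Share of the members of each of 40 gene lists at a mean of 1 FPKM or more in NC cells (bars, in %), with the count beside each bar; the dotted line is the share of all named genes (19.4%) and the dashed line that of protein-coding genes (43.8%). Machinery lists reach 89.1% to 100% apart from the mitochondrially encoded genes at 80%, receptor lists lie between 21.8% and 57.5%, and markers of other cell types between 0% and 12.5%.

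Hormone receptors were low. Estrogen receptor alpha, Esr1, was listed at 0.744, 0.511 and 0.651 FPKM, and Pgr (0.00174 FPKM), the progesterone receptor, was near 0. Of the 48 nuclear receptors 20 were expressed (41.7%, near the 43.8% of protein-coding genes), none above 100 FPKM. Among them were Nr2f6 (17.1 ± 2.9), Rxrb (13.8 ± 0.543), Nr1h2 (11.5 ± 1.48), which senses oxysterols, Esrra (10.1 ± 0.88), Rxra (9.85 ± 0.322), the retinoic acid receptors Rara (9.45 ± 1.32) and Rarg (7.65 ± 0.913, or 11.8 ± 1.1 with unnamed transcripts), and Ppard (9.15 ± 0.8). The ranges of these neighbours overlapped in the main. The glucocorticoid receptor Nr3c1 was listed at 0.58, 1.01 and 2.1 FPKM, but at 7.06 ± 0.913 once unnamed transcripts of its locus were added. Pparg, Ppara and Rora were at 0.

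Receptor tyrosine kinases were led by Axl, the receptor for Gas6, at 171, 197 and 181 FPKM (183 ± 13.2). Its values did not overlap those of Epha2, an ephrin receptor, at 39.5, 42.6 and 40.7 FPKM, which came next. Ryk (35.5 ± 1.84), Ptk7 (22 ± 1.27), both Wnt co-receptors, Met (17.4 ± 1.56), the receptor of hepatocyte growth factor, and Ephb4 (11.8 ± 1.09) followed. In the ErbB family Erbb2 stood at 8.07, 8.85 and 8.48 FPKM, Erbb3 at 0.153, Egfr at 0.00843, and Erbb4 was listed at 0. Of 56 kinases of this class 21 were expressed (37.5%, against 43.8% of protein-coding genes). Another 21 were at 0, Kit, Ret, Kdr and Flt3 among them.

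Of 57 cytokine, interferon and TNF family receptors 27 were expressed (47.4%, near the 43.8% of protein-coding genes). Tnfrsf12a (Fn14, the receptor of Tweak) was far above the rest at 182, 214 and 203 FPKM. Ltbr (22 ± 1.86), Tnfrsf1a (20.2 ± 1.45), Il6st (15.8 ± 0.295), the shared chain gp130, Tnfrsf19 (15 ± 0.243), Tnfrsf22 (13.1 ± 0.824), Tnfrsf10b (12.5 ± 0.761) and Tnfrsf23 (12.6, 15 and 5.99) came next. Chains of the interferon alpha and gamma receptors were expressed, with Ifnar2 at 9.42, Ifnar1 at 8.97, Ifngr2 at 6.9 and Ifngr1 at 6.6 FPKM. The colony-stimulating factor receptors Csf1r, Csf2ra, Csf2rb and Csf3r were at 0, and Lifr, the partner of gp130 for Lif, stood at 0.00782 FPKM. Il17rc was listed at 0.423 ± 0.412 FPKM, or 6.79 ± 0.567 with unnamed transcripts, beside Il17ra at 5.12.

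Receptors of TGF-beta, Wnt, Notch and Hedgehog ligands were expressed in 23 of 40 cases (57.5%, against 43.8% of protein-coding genes). Smo, the Hedgehog signal transducer, led at 54.2, 65.7 and 58 FPKM, above Nrp2 (43.8 ± 0.876, or 15.4 from its most abundant transcript), a semaphorin and VEGF co-receptor, and Eng (28.6 ± 3.1), Tgfbr2 (19.7 ± 0.617), Lrp5 (19.6 ± 1.12) and Fzd6 (17.4 ± 1.44). Plxnb2 was uneven, at 21.7, 28.3 and 4.95 FPKM. Of the Notch receptors Notch2 was at 5.5 and Notch1 at 3.22 FPKM, while Notch3 stood at 0.047. Of 55 G protein-coupled receptors 12 were expressed (21.8%, against 43.8% of protein-coding genes): F2r, the thrombin receptor, at 31 ± 2.38 FPKM, Gprc5a at 23.4 ± 1.61, S1pr2 at 8.31 ± 0.549, F2rl1 at 7.99 ± 0.14 and Gpr39 at 7.92 ± 0.527. Among chemokine receptors of this list, Ackr3 was expressed at 3.02 ± 0.314 FPKM, and Cxcr4, Cxcr2 and Ccr2 were listed at 0. The adhesion receptor Adgrl2 was listed at 0.253, 0.604 and 1.2 FPKM, but its locus came to 14.2, 14.4 and 14.4 with unnamed transcripts. Of 26 integrins 12 were expressed (46.2%, near the 43.8% of protein-coding genes). The laminin-binding Itga3 (155, 150 and 92 FPKM, or 222, 247 and 236 with unnamed transcripts) and Itgb1 (123 ± 7.59) led, then Itga6 and Itgav (25.7, 7.53 and 17.9).

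**Figure D4:**
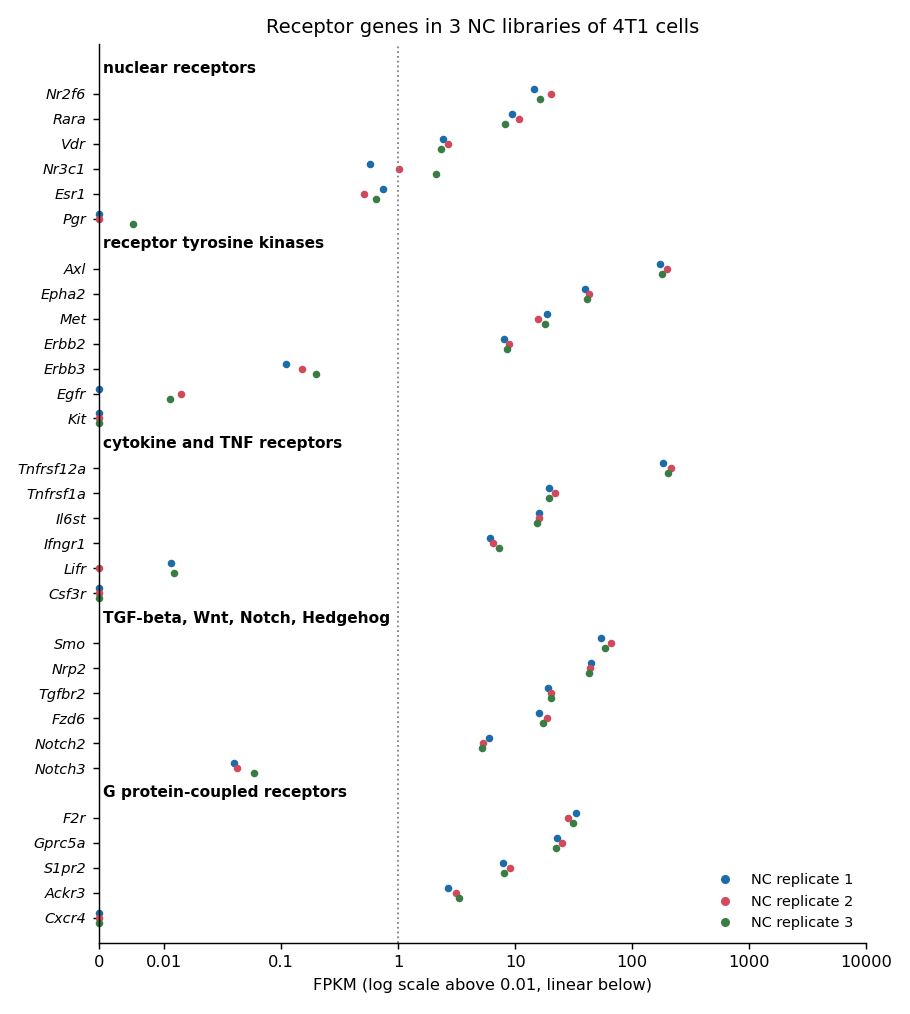
FPKM of receptor genes in each NC library (colours), on an axis that is logarithmic above 0.01 and linear below; the dotted line is 1 FPKM. Axl and Tnfrsf12a lie near 200 FPKM and Smo near 60, Erbb2 between 8.07 and 8.85, and Pgr, Egfr, Kit, Csf3r and Cxcr4 near 0 or at it.

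Of 83 cytokines, chemokines and growth factors 33 were expressed (39.8%, near the 43.8% of protein-coding genes). Mif, a pro-inflammatory cytokine, stood at 607, 700 and 641 FPKM and Spp1 at 312, 236 and 286, and the values did not overlap. Csf1, the growth factor of macrophages, followed at 39.7, 47.7 and 47 FPKM, with Wnt7b (43 ± 2.29), Hbegf (32.9 ± 1.66), an EGF family ligand, and Grn (28.9 ± 1.14). Slpi, a secreted protease inhibitor, was listed at 56.1, 5.98 and 72.2 FPKM, with replicate 2 far below the others. Tgfb1 stood at 21.2 ± 2.39, Cx3cl1 at 21 ± 0.607, Ccl2, which draws monocytes, at 11.3 ± 1.44 and Cxcl1, which draws neutrophils, at 8.34 ± 0.658 FPKM. Csf3 (G-CSF), known in 4T1 tumours for raising neutrophil numbers, was low at 2.99, 1.33 and 3.09 FPKM, or 3.98 ± 0.175 with unnamed transcripts. Il6, Tnf, Igf1, Cxcl12 and Hgf were listed at 0 in every library, and Il1b (0.0262 FPKM) and Csf2 (0.101) were near it. For 3 factors nearly all of the level lay in unnamed transcripts: Lif went from 0.668 to 6.14 FPKM, Cxcl5 from 0.505 to 4.73 and Il34 from 0.402 to 6.42 when these were added.

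Matrix genes of basement membranes were among the highest of their list. Of 45 matrix genes 22 were expressed (48.9%, near the 43.8% of protein-coding genes). After the protease inhibitor Timp1 (197 ± 9.56 FPKM), Sparc and Timp2 (89.6 ± 4.87) came the type IV collagens Col4a1 (52.3, 53.7 and 53.9 FPKM) and Col4a2 (37.4 ± 1.47), fibronectin, and the laminin chains Lamc1 (39.3 ± 1.19), Lamb1 (38 ± 0.843) and Lama5 (29.9 ± 2.77). The chains of laminin-332, Lama3 (0.0303 FPKM) and Lamb3 (0.103), were near 0, and Postn, Vcan and Lox were at 0. Of 43 proteases and genes of the plasminogen system 26 were expressed (60.5%, against 43.8% of protein-coding genes). Cathepsin L (Ctsl) was listed at 297, 110 and 135 FPKM, with replicate 1 above the others, Ctsz at 134 ± 4.4, Mmp3 at 107 ± 6.84, urokinase Plau at 63.3 ± 4.61, Ctsb at 50.7 ± 3.82, Ctsd at 50.1 ± 4.03, Mmp9 at 30.8 ± 2.2 and Mmp10 at 29.1 ± 2.7. Mmp2, often made by stromal cells, stood at 0.0867 FPKM. The membrane protease Mmp14 was at 12.4 ± 2.04 FPKM, or 32.3 ± 2.14 with unnamed transcripts, and the urokinase receptor Plaur at 11.6 ± 3.19, or 44 ± 3.24.

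Genes of antigen presentation were mainly of class I. B2m, the light chain of class I molecules, stood at 382, 313 and 349 FPKM, Calr at 338 ± 16.7, Pdia3 at 157 ± 14.8 and Canx at 135 ± 12.7, the last 3 being folding factors of the endoplasmic reticulum. The heavy chains H2-K1 and H2-D1 were at 97.5 ± 13.8 and 53.5 ± 14.2 FPKM, and H2-K1 at 199 ± 12.3 with unnamed transcripts; reads of these genes can be shared with their close paralogues. The peptide transporter genes Tap1 (3.47 FPKM) and Tap2 (4.8) were lower. Class II genes H2-Aa, H2-Ab1, H2-Eb1 and their regulator Ciita were listed at 0, and Cd74, the class II chaperone, stood at 1.43 ± 0.254. Of 38 immune checkpoint genes and NK ligands 15 were expressed (39.5%, near the 43.8% of protein-coding genes). Among them were Lgals3 at 151 ± 11 FPKM (100 from its most abundant transcript), Cd24a at 39.1 ± 0.265, Lgals9 at 28.7 ± 2.49, Nectin2 at 22.8 ± 1.16, Pvr at 19.5 ± 0.996 and Cd276 at 12.5 ± 0.711. Cd274, which encodes PD-L1, was under 1 FPKM at 0.237, 0.225 and 0.22. The co-stimulatory genes Cd80 and Cd86 and the enzymes Ido1 and Arg1 were at 0. Cd47, the signal that blocks uptake by macrophages, was listed at 2.44 ± 1.23 FPKM, or 15.9 ± 0.714 with unnamed transcripts.

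Most listed oncogenes were expressed, 54 of 68 (79.4%, against 43.8% of protein-coding genes). Cyclin D1, Ccnd1, led at 340, 369 and 368 FPKM, with Hmga1 (331 ± 14.8), a chromatin protein of embryonic and tumour cells, and Akt1 (219 ± 13). The values of Hmga1 (322, 348 and 322 FPKM) overlapped those of Ccnd1, and both lay above all values of Akt1 (207, 233 and 218). From the most abundant transcript alone the order turned, with Hmga1 at 66.2 FPKM and Akt1 at 217. Ctnnb1, Cdk4 (135 ± 7.13), the kinase partner of cyclin D, Birc5 (survivin, 117 ± 2.87), Rac1 (97.9 ± 6.13), Idh2 (59.3 ± 4.11) and Myc (51.8, 57.5 and 49.1; mean 25 from its most abundant transcript) followed. Hmga2, a paralogue of Hmga1 that is mostly embryonic, was at 41.3, 37.4 and 35 FPKM. Hras was at 31.3 FPKM and Nras at 14.9 ± 5.87, or 29.8 ± 1.05 with unnamed transcripts. Mycn, Lin28a, Lin28b and Gli2 were listed at 0, and Tert stood at 0.668 ± 0.146. Cdk6 was listed at 1.22 ± 0.253 FPKM, or 8.01 ± 0.552 with unnamed transcripts.

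Of 67 tumour suppressor genes 50 were expressed (74.6%, against 43.8% of protein-coding genes). Adding unnamed transcripts raised the count of all named genes from 10139 to 10515, and that of this list to 57. The highest was Mtap, which encodes an enzyme of methionine salvage, at 170, 171 and 177 FPKM (173 ± 3.95), above Cbfb (39 ± 1.84), Smarca4 (38.6 ± 1.84), Cdkn2c (36.9 ± 1.06) and Smarcb1 (36.5 ± 2.53), whose ranges overlapped. Trp53 stood at 16.1, 18.6 and 16.5 FPKM, its target Cdkn1a at 4.49 ± 0.217, Brca1 at 7.41 ± 1.44 and Rb1 at 1.96, 0.884 and 1.5. The 7 listed at 0 in every library, also with unnamed transcripts, were Cdkn2a, Cdkn2b, Cdkn1c, Axin2, Tbx3, Fat4 and Fhit. Cdkn2a (chr4:89192708-89212890, GRCm39), which encodes p16Ink4a and p19Arf, and Cdkn2b (chr4:89224536-89229276, GRCm39), which encodes p15Ink4b, are neighbours of Mtap (chr4:89055359-89099318, GRCm39), so the gene at rank 243 of all named genes lay near 2 at 0. Among the named genes between and beyond them, the small nucleolar RNA gene Gm26490 was listed at 0.962, 2.23 and 0.307 FPKM, Tgif2-ps1 and Gm12609 at 0, Gm12606 at 0.197, 0.114 and 0 FPKM, and Gm12610 at 0, 0.111 and 0, so the named genes from Cdkn2a to Gm12610 were at or near 0. The next protein-coding gene on that side, Dmrta1 (chr4:89567673-89583009, GRCm39), was also at 0, as were the type I interferon genes Ifna1, Ifna4 and Ifne on the other side of Mtap. Expression values do not tell a lost gene from a silent one, and which of these holds at Cdkn2a was not tested. Atm and Fat1 were listed at 0.0644 and 0.492 FPKM, but at 2.41 ± 0.552 and 12 ± 0.696 with unnamed transcripts of their loci.

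Position and dosage genes were read next. All 12 listed genes of the Y chromosome were at 0, and of the 1555 named genes on that chromosome 1 was expressed, Gm47283 (8.86 ± 1.16 FPKM; 34.9 ± 7.4 with unnamed transcripts). Xist, the RNA that coats an inactive X chromosome, stood at 0.00575, 0 and 0.00743 FPKM, and its antisense gene Tsix was at 0. Among protein-coding genes the X chromosome had the lowest share expressed of the chromosomes other than Y, 253 of 915 (27.7%), with chromosome 7 next at 34.5%. The highest shares were on chromosomes 12 (52.5%), 15 (52.2%) and 8 (52.1%). Chromosome 11 held 10.9% of named FPKM, more than any other.

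Homeobox genes of the Hox clusters were expressed from 1 cluster. Of 39, 7 were expressed (17.9%, against 43.8% of protein-coding genes), all of them in HoxA. Among them were Hoxa5 (23.2, 17.5 and 18.9 FPKM), Hoxa2 (4.67 ± 0.351), Hoxa10 (3.93 ± 1.04, or 14 ± 0.845 with unnamed transcripts), Hoxa3 (2.63 ± 0.962), Hoxa7 (2.08 ± 0.205) and Hoxa6 (1.78 ± 0.0913). Hoxa9 (0.485 ± 0.114 FPKM) and Hoxa4 (0.288 ± 0.144) were lower, every listed HoxB gene was at 0, and no HoxC or HoxD gene reached 0.1 FPKM. Imprinted genes are expressed from the allele of a single parent in many tissues. Here 12 of 45 were expressed (26.7%, against 43.8% of protein-coding genes and 19.4% of all named genes). Gnas (310, 306 and 298 FPKM), Commd1 (17.9 ± 2.09), Igf2r (17.4 ± 0.212), Phlda2 (14.6 ± 4.15, or 24.2 ± 1.5 with unnamed transcripts) and Blcap (12.7 ± 0.535) were highest. The fetal growth gene Igf2 and Dlk1, Meg3, Peg3 and Plagl1 were at 0, and H19, which shares its enhancers with Igf2, stood at 0.778 FPKM.

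Large gene families of special organs were at or near 0, beside 61.7% of all named genes listed at 0 in every library. Of 1410 olfactory receptor genes 1367 were listed at 0 and none was expressed, and the whole family summed to 0.716 ± 0.111 FPKM. The same held for 338 of 349 vomeronasal type 1 receptors, 231 of 238 of type 2, 39 of 40 bitter taste receptors, 41 of 43 beta-defensins, 56 of 58 keratin-associated proteins, and 635 of 642 immunoglobulin and T cell receptor segments. All 22 major urinary protein genes and all 69 secretoglobin genes were at 0. Of 135 cytochrome P450 genes 5 were expressed, with Cyp1b1 (14.9 ± 1.63 FPKM) highest. Of 384 solute carrier genes 148 were expressed (38.5%), and of 423 genes named Zfp (zinc finger proteins) 203 (48%), beside 43.8% of protein-coding genes. The Zfp genes were mostly low, with 16 at 10 FPKM or more.

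Outside the lists and the 30 highest genes, the most abundant were Rn18s, the 18S ribosomal RNA, Gm15772 (954 ± 73.9 FPKM), Rack1 (798 ± 57.3), a ribosome-bound scaffold, Rps18-ps6, Atp5b (572 ± 33.9) and Slc25a5 (543 ± 27.8), which make and move mitochondrial ATP, Ybx1 (482 ± 19.4) and Hnrnpab (452 ± 14.4), RNA-binding proteins, Gm13394 (433 ± 55.6) and Nme2 (406 ± 28), a nucleoside diphosphate kinase. Rn18s was listed at 1333, 1068 and 543 FPKM, so that replicate 3 held the least of this ribosomal RNA.

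Mitochondrially encoded genes held 1.66% ± 0.391 of named FPKM, 2.08% in the highest library. An unnamed transcript of 2 exons and 3664 bases spans positions 2751 to 9390 of the mitochondrial genome and was listed at 984, 768 and 933 FPKM. It is shorter than its span, and where its exons lie is not given in the table. Within this span mt-Nd1 was listed at 3.7 ± 0.277 FPKM, mt-Atp6 at 0.0228 and mt-Co3 at 0.0633, while mt-Co1, of the same respiratory chain and also within the span, stood at 1783 ± 161. mt-Nd2, between mt-Nd1 and mt-Co1, was listed at 713, 116 and 90.8 FPKM. How reads were shared between the named transcripts and the unnamed one was not tested.

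Unnamed transcripts touched other genes too. At loci with exactly 1 named gene, adding them raised 1012 expressed genes by more than 1.5 times and brought 376 genes to 1 FPKM that were below it, 6 of these from 0 in every library. The genes with the largest CV among those at 10 FPKM or more were Gm15459 (20, 31.7 and 381 FPKM), Bag2 (28.3, 5.56 and 0.723), mt-Nd4 (4.75, 45.3 and 4.96), Mir5114 (48.4, 1.91 and 9.42), mt-Nd2, Heatr3 (8.01, 42.7 and 6.79), Prdx3 (9.22, 15.9 and 68.9), Msto1 (4.1, 6.1 and 25.2), mt-Atp8 (0.683, 23 and 12.1) and Alyref (4.76, 15.2 and 40.6). For several of them an unnamed isoform was low in the library where the named one was high: that of Prdx3, a mitochondrial peroxidase, was listed at 62.5, 60.9 and 5.59 FPKM, and that of Gm15459 at 594, 686 and 154. With unnamed transcripts Gm15459 came to 622 ± 91.6 FPKM, Prdx3 to 74.3 ± 2.53, Msto1 to 36.2 ± 4.36, Alyref to 34.1 ± 8.76 and Bag2 to 28.9 ± 0.953. The named 15-exon isoform of Heatr3 stood at 6.51, 42.6 and 5.64 FPKM beside an unnamed 16-exon isoform at 34.1, 2.84 and 36.8. In all, 62 of the 4410 genes at 10 FPKM or more had a CV above 50%. At the other end Fabp5, a fatty acid carrier, was listed at 42.4, 42.3 and 42.3 FPKM.

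Most well-expressed genes had a leading isoform among their named transcripts. The medians that follow leave unnamed transcripts out. For Bag2, the leading transcript held 94.8% of the named level but 37.9% of the locus once unnamed transcripts were counted. Among genes with more than 1 named transcript, the leading one held a median of 85.5% of the level in 4881 genes at 1 to under 10 FPKM, 93.6% in 3629 genes at 10 to under 100 and 96.8% in 406 genes at 100 or more. Cd44, the hyaluronan receptor, was divided: a 9-exon isoform held 62.4% of the locus (36.8, 35.9 and 31.3 FPKM), and a 19-exon isoform with variant exons 29.8% (17.4, 12.4 and 19.8). The 2 ranges did not overlap. Fn1 had no single leader, with isoforms of 44 exons at 19.1 ± 2.11 FPKM and 45 exons at 16.5 ± 2.24.

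Promoters of expressed genes differed in base composition from those of silent genes. The CpG ratio, the number of CG pairs over the number that the counts of C and G would give, was taken over RefSeq windows (GRCm38.p6) of 17688 named genes that have exactly 1 window. Each window held 300 bases, 250 before the start and 50 after it. Its median was 0.22 (quartiles 0.10 and 0.41) for 8481 genes at 0 in every library, 0.49 for 3056 genes above 0 and under 1 FPKM, 0.80 for 3264 genes at 1 to under 10, 0.83 for 2595 genes at 10 to under 100 and 0.87 (0.70 and 0.98) for 292 genes at 100 or more, beside 0.48 over all windows. The largest step between neighbouring classes was the one across 1 FPKM, and the quartiles of the 3 expressed classes overlapped widely. GGGCGG was found in 18.8% of windows of genes at 0 and in 68.8% to 72.6% of those of expressed genes, against 41.5% of all; it is itself rich in G and C. TATAAA was found in 20.6% of windows of genes at 0, 5.58% at 1 to under 10 FPKM, 6.05% at 10 to under 100 and 14.7% at 100 or more, against 14.1% of all, so it was least common at middle levels. CCAAT varied little, from 38% to 44.5%. The genes with printed sequences did not all follow the class medians. Their ratio was taken over the full windows of 300 bases, longer than the parts printed. It was 0.60 for Krt18 but 0.42 for Vim, 0.24 for Krt8 and 0.08 for Mmp3, all of them expressed. For Csn2 the ratio was 0.18 and for Epcam 0.45. These are descriptions across genes, which share families and neighbourhoods, and carry no test.

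**Figure D5:**
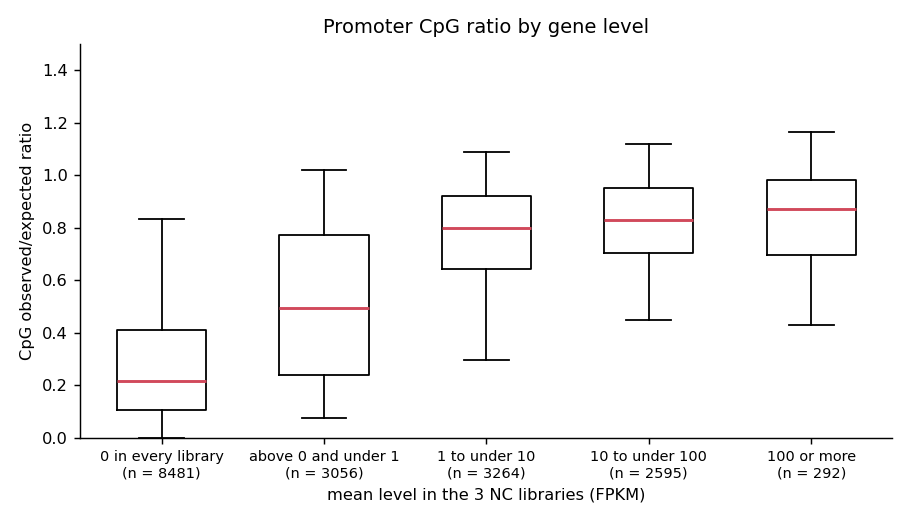
CpG observed over expected ratio of RefSeq promoter windows by the mean level of the gene in the 3 NC libraries; boxes span the quartiles, red lines are medians and whiskers reach the 5th and 95th percentiles. The median rises from 0.22 for genes at 0 to 0.80 at 1 to under 10 FPKM and 0.87 at 100 or more.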

How the data were processed

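Per the labels' protocols, RNeasy Mini Plus columns gave the RNA and NEBNext Ultra reagents the libraries; FastQC, Trim Galore, HISAT2 and StringTie, without versions, and the build GRCm39 are named in the submitters' processing notes. The authors deposited FPKM values per transcript, for 158719 transcripts, of which 17991 carry no gene name. The sources used here give neither poly(A) selection nor strand, so reads of overlapping genes cannot be told apart. Columns were assigned through the column names quoted in the sample descriptions.

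From these, FPKM was summed by gene name over named transcripts (Python 3.11.15, pandas 2.3.3, numpy 2.4.6, matplotlib 3.10.9), leaving out 19 names found on more than 1 chromosome. Values "with unnamed transcripts" add unnamed transcripts where their locus holds exactly 1 named gene. Summing was checked on simulated data. Named genes were matched to RefSeq by symbol (38119 matched); coordinates of genes are those of the deposited table, and those of promoters belong to GRCm38.p6.

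The libraries described and the 40 gene lists (1470 entries) were chosen with earlier results of these data known. Named are the 30 highest genes, Krt8, Krt18, Vim and Mmp3, up to 8 leading members of each list and members under 0.1 FPKM that describe its absence, the 10 genes of largest CV at 10 FPKM or more, and the 10 highest in no list. Other genes named, Cdh1, Esr1, Myc, Trp53, Cd274 and Cdkn1a among them, and the groups of complexes, were picked once the values had been seen. A few genes that the rule would name are not reported here. Alternatives are given in the closing section.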

Additional observations from a re-analysis of the deposited data

How the results depend on the processing

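No paired analysis was possible because 1 group was described and its results come from no test. The 8 summary values were recomputed without each library, from the most abundant transcript per gene, with unnamed transcripts added, with names on more than 1 chromosome kept, and, for counts and the CV, after rescaling each library to a common total and with median-of-ratios size factors. Leaving out 1 library kept the count of expressed genes at 10086 to 10197 and the median CV at 4.8% to 8.08%. The count of expressed genes was 14030 at a minimum of 0.1 FPKM, 11276 at 0.5, 6423 at 5 and 4410 at 10. It was 10134 with median-of-ratios size factors and 11952 after rescaling to a common total. That total lay well above the summed FPKM of each library (321551 to 332950), so every level above 0 rose, for Lgals1 from 4333 to 13236. The unchanged minimum of 1 then let in genes of lower original FPKM, so the count of 11952 stands for a lower cutoff. The share of the 10 highest genes was 8.13% from the most abundant transcript per gene, 6.8% with unnamed transcripts, 6.46% of the FPKM of all transcripts and 7.05% without mitochondrially encoded genes. That of the 100 highest was 30.4% with unnamed transcripts and 28.6% of all transcripts. Ribosomal proteins held 18% and 17.5% under the first and second of these settings. FPKM without counts gives no depth, so listed zeros have no limit, and values with unnamed transcripts are given beside named genes that these raise by more than 1.5 times. Of 47 gene levels recomputed, the most abundant transcript alone lowered 9 by more than 1.5 times: Hmga1 (66.2 FPKM), Fth1 (615), Spp1 (127), Lgals3 (100), H2-K1 (63.6), Myc (25), Nrp2 (15.4), Plaur (5.16) and Cd47 (1.27).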
